A study of Mus musculus with 16 samples.

Results

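Meg3, Rian, Mirg, Peg3, Ndn, Impact, Nap1l5 and Zdbf2 are imprinted genes with high or readily measured expression in neurons. They were taken by gene symbol from the deposited table, where they are 8 of 55359 rows, and all 8 passed the filter on low values. The libraries came from the hippocampus of C57BL/6JNarl mice, with the tissue given as brain in the sample labels. Chronic-stressed males, non-stressed males, chronic-stressed females and non-stressed females had 4 libraries each. A library pooled 3 mice, except in stressed males, where 3 libraries pooled 2 mice and 1 library, stressed male 3, held 1 mouse. Strain and tissue were shared by all groups, and the series asks how males and females differ under both conditions.

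An imprinted gene is transcribed mainly from 1 parental chromosome, which is set by DNA methylation laid down in the egg or sperm. Many such genes lie in clusters under a shared control region, and many are most active in brain. Meg3, Rian and Mirg are noncoding RNAs made from the maternal chromosome in the Dlk1-Dio3 domain, in one direction, and microRNAs and small nucleolar RNAs are processed from them. The other members are expressed from the paternal chromosome. Peg3 is a zinc finger protein studied in maternal behaviour and growth. Ndn (necdin) is a MAGE family protein of the Prader-Willi region, and Impact binds Gcn1 and restrains the amino acid sensor kinase Gcn2. Nap1l5 is an intronless gene of the nucleosome assembly protein family that lies inside an intron of Herc3, and Zdbf2 is a zinc finger gene whose dosage affects growth and feeding in mice.

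The deposited coordinates are on build GRCm39. Meg3 lies at chr12:109506884-109538160, Rian at chr12:109570242-109628150 and Mirg at chr12:109696198-109715894, all on the plus strand. Peg3 lies at chr7:6706891-6733430 on the minus strand, Ndn at chr7:61996317-62000010 on the plus strand, Nap1l5 at chr6:58882218-58884061 on the minus strand and Zdbf2 at chr1:63312424-63353735 on the plus strand. Exonic length, the sum of a gene's exons in the deposited table, was 18.1 kb for Meg3, 32.0 kb for Rian, 7.29 kb for Mirg, 13.6 kb for Peg3, 12.7 kb for Zdbf2, 5.13 kb for Impact, 3.69 kb for Ndn and 1.84 kb for Nap1l5. The median of all tested genes was 3.62 kb.

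The promoter windows of the 4 members called in both sexes are printed because the results turn on these genes. Each runs from 250 bases before to 50 bases after the RefSeq start on build GRCm38.p6, 5′ to 3′ on the gene's strand, at chr12:109540746-109541045 for Meg3, chr7:6730370-6730669 for Peg3, chr1:63273019-63273318 for Zdbf2 and chr6:58907077-58907376 for Nap1l5. Capitals mark the palindromic cAMP response element TGACGTCA or, in Nap1l5, its 5-base core in the orientation CGTCA.
Meg3: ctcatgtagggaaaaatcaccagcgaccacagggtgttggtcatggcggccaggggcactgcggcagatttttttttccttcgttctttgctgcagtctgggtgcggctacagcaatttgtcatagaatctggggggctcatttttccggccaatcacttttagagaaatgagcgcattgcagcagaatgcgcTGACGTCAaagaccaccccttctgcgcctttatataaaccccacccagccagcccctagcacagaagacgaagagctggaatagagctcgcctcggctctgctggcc
Peg3: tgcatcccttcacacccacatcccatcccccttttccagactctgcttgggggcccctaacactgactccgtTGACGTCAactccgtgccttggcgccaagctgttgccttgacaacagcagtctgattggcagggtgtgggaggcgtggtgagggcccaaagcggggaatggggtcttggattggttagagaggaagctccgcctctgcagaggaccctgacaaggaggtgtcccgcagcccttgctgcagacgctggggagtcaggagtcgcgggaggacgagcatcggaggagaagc
Zdbf2: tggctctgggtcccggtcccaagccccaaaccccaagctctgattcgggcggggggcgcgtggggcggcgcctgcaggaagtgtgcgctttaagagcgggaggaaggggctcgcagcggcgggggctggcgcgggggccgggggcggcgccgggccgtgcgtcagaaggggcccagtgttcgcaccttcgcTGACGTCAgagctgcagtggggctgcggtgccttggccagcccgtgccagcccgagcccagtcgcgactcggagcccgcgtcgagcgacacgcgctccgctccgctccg
Nap1l5: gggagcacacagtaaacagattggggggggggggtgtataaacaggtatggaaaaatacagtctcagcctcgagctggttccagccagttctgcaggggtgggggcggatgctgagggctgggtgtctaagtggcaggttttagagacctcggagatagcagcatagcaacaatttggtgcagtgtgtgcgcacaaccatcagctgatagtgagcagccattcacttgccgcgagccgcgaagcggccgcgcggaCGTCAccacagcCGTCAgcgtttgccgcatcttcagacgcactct
The RefSeq start lay within 50 bases of the GENCODE M21 start in 5 of the 7 windows on hand, but 5217 bases inside the GENCODE gene for Mirg, whose window holds 3 mature microRNAs, and 1708 bases inside it for Ndn. The windows of Mirg and Ndn are thus at the RefSeq start alone. The palindrome was present in 3 of the 7 windows (Meg3, Peg3 and Zdbf2) and in 1.79% of 32851 windows of all genes. Its first base lay 57 bases before the start in Meg3, 59 in Zdbf2 and 178 in Peg3. The core TGACG, on either strand, was in 20.8% of all windows, and it is part of each palindrome. The palindromic glucocorticoid response element, searched in full on both strands, was in none of the 7 windows and in 0.00913% of all. One arm of it, AGAACA, present in 19% of all windows, was found in Rian and in the window inside Mirg. TATAAA, present in 13.6% of all windows, was found in Meg3 and Nap1l5, and neither the Egr motif GCGTGGGCG (0.612% of all) nor the YY1 motif GCCATNTT (6.05%) was found in the 7. CpG dinucleotides numbered 38 in Zdbf2, 17 in Nap1l5, 13 in both Meg3 and Peg3, 11 in Ndn, 10 in Mirg and 0 in Rian, against a median of 7. The motifs were chosen with the expression results known, and a match is a string of letters, not a measured binding site.

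MicroRNAs made from the maternal transcripts are shown because they are what Mirg, Rian and part of Meg3 are processed into. By RefSeq positions 26 mature microRNAs lie within the GENCODE M21 span of Mirg, 6 within that of Rian and 3 within that of Meg3 on their own strand, and 11 opposite to Rtl1. Capitals mark the seed, bases 2 to 8, which pairs with a target. The first is within Meg3, the second within Rian, the next 4 within Mirg and the last 2 opposite to Rtl1.
miR-770-5p: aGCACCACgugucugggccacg
miR-370-3p: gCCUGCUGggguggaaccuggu
miR-134-5p: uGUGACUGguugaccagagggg
miR-410-3p: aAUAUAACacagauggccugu
miR-453: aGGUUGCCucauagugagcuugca
miR-496a-5p: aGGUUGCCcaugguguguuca
miR-127-3p: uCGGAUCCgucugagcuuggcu
miR-433-3p: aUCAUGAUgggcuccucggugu
The 26 mature sequences of Mirg carried 25 different seeds, and miR-453 and miR-496a-5p shared GGUUGCC. The microRNAs themselves were not measured here, only the longer transcripts that hold them.

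Library totals were 18604990 to 32501597 counts in stressed males, 15156004 to 19499605 in non-stressed males, 18237170 to 28595913 in stressed females and 15776351 to 20142958 in non-stressed females. The first principal component separated all stressed from all non-stressed libraries and held 65.6% of the variance. Non-stressed female libraries 1 and 4 stood apart on the second, with 11.3%. Levels are given as FPKM, counts divided by exonic length and by the library total. Fold changes are log2 values from edgeR's quasi-likelihood test on counts, stressed over non-stressed, with Benjamini-Hochberg adjustment over 17569 genes and a threshold of 0.05. All 8 marker genes of hippocampal neurons were detected. Summed neuronal marker FPKM was 1037 ± 23.3 in stressed males against 1022 ± 12.2 in non-stressed males, and 1045 ± 37.3 in stressed females against 1036 ± 41.1 in non-stressed females. The 6 astrocyte markers summed to 409.9-449 FPKM in stressed males against 381-401 in non-stressed males, and to 416-478 FPKM in stressed females against 348-405 in non-stressed females. The 6 endothelial markers summed to 15.5-19.5 FPKM in stressed males against 19.6-22.2 in non-stressed males, and to 16.7-19.5 FPKM in stressed females against 20.7-31.6 in non-stressed females. The 6 microglial markers summed to 107-114 FPKM in stressed males against 131-151 in non-stressed males, and their ranges overlapped in females. The 6 meningeal markers summed to 313-517 FPKM in stressed females against 531-875 in non-stressed females, and their ranges overlapped in males. The ranges of the other marker lists overlapped in both sexes, though some means differed. Hypothalamic markers, of which 3 of 8 averaged at least 0.5 FPKM, summed to 2.9 ± 1.8 FPKM in stressed against 8.3 ± 4.1 in non-stressed females. In males they summed to 3.7 ± 3.2 against 4.4 ± 1.1. Blood markers summed to 206 ± 150 FPKM in stressed against 120 ± 32.7 in non-stressed males. In females they summed to 105 ± 7.9 against 196 ± 105. Choroid plexus sums ran between 1174 and 6514 FPKM in males. These are sums, and single markers of a list did not all move together. In males 2 endothelial markers were called higher (Kdr at 0.62 and Flt1 at 0.50) and 1 lower (Cldn5 at -0.77). One astrocyte marker was called higher in males (Slc1a2 at 0.44) and 1 lower (Gfap at -0.27). In females 1 endothelial marker was called higher and 2 lower, and 2 astrocyte markers higher and 0 lower. Of the microglial markers 3 were called lower in each sex, and 0 with the length and GC trend described below removed. With it removed, 0 endothelial markers were called higher in either sex, with 1 lower in males and 2 in females. Of the astrocyte markers 0 were then higher in either sex, with 2 lower in males and 1 in females. The sums were not examined with the trend removed. The part of the marker shifts in the results below was not tested, and in bulk tissue fewer cells of a type and less RNA per cell cannot be told apart.

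Peg3, Meg3 and Zdbf2 were higher in stressed than in non-stressed mice of both sexes, and Nap1l5 was lower in both. Ndn was lower in stressed females by the test. Rian, Mirg and Impact did not pass in either sex. In males 3 of the 8 genes were called higher and 1 lower, where 18.5% of all tested genes were called higher and 21.2% lower (39.7% in all). In females 3 were called higher and 2 lower, where 22.1% of all tested genes were called higher and 27.3% lower (49.3% in all). The median log2 fold change of the 8 was -0.02 in males and 0.06 in females, beside -0.03 for all tested genes in each sex. The FPKM ranges of stressed and non-stressed libraries did not overlap for 5 of the 8 genes in each sex, where this held for 44.7% of all tested genes in males and 40.8% in females.

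**Figure D1:**
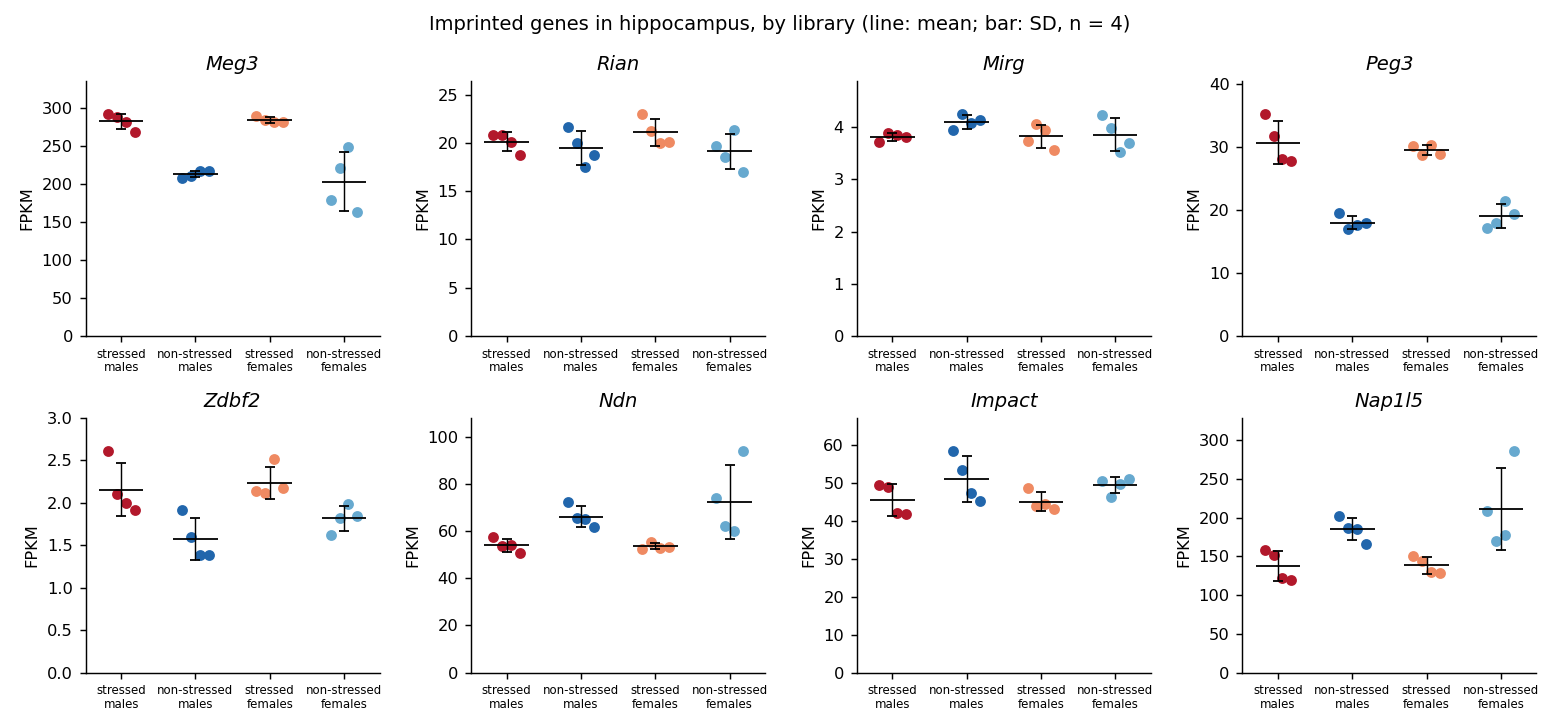
FPKM (y axis, from 0) of the 8 imprinted genes in each library, with stressed left of non-stressed within each sex (x axis); points are libraries, lines the group means and bars the SD (n = 4). Meg3 and Peg3 sit above, and Nap1l5 and Ndn below, their non-stressed libraries in both sexes, while Rian and Impact overlap in both.

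Meg3, the long noncoding RNA at the head of the maternal transcripts, had rank 85 of all genes by mean FPKM, the highest of the 8. It stood at 291, 287, 281 and 269 FPKM in stressed males, against 208, 210, 217 and 216 FPKM in non-stressed males. In females it stood at 289, 284, 281 and 282 FPKM in stressed libraries, against 179, 221, 248 and 163 FPKM in non-stressed libraries. Every stressed library was above every non-stressed library of its sex, and the stressed libraries lay closer together than the non-stressed females, whose lowest values were libraries 1 and 4. The log2 fold change was 0.42 ± 0.10 (SE) in males, with an adjusted p of 0.0034 by edgeR, and 0.48 ± 0.10 in females, with an adjusted p of 0.00095. Meg3 took 0.511% ± 0.018 of all counts in stressed males against 0.385% ± 0.0082 in non-stressed males, and 0.514% ± 0.0065 in stressed females against 0.367% ± 0.071 in non-stressed females (SD, n = 4). With the length and GC trend described below removed, its log2 fold change was -0.12 in males and -0.08 in females, and neither passed.

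Rian, which follows Meg3 downstream and holds C/D box small nucleolar RNAs as well as microRNAs, had 20.84, 20.87, 20.11 and 18.77 FPKM in stressed males, against 21.66, 20.00, 17.55 and 18.74 FPKM in non-stressed males. Stressed females had 22.97, 21.28, 20.03 and 20.09 FPKM, against 19.69, 18.49, 21.29 and 16.98 FPKM in non-stressed females. The ranges overlapped in both sexes, with a log2 fold change of 0.06 ± 0.08 in males and 0.14 ± 0.08 in females (edgeR adjusted p = 0.58 and 0.15). With the length and GC trend removed Rian was called lower, by -0.52 in males and -0.41 in females. On the TPM scale, where the median gene itself stood at 0.20 in males and 0.23 in females, it was called higher, by 0.29 and 0.39. Without non-stressed female 3 the female value was called higher, at 0.24.

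Mirg, the last and lowest of the 3 maternal transcripts and the host of a large microRNA cluster, had 3.71, 3.89, 3.86 and 3.81 FPKM in stressed males, against 3.94, 4.25, 4.09 and 4.14 FPKM in non-stressed males. Stressed females had 3.73, 4.07, 3.94 and 3.57 FPKM, against 4.23, 3.99, 3.53 and 3.69 FPKM in non-stressed females. The male ranges did not overlap, but the distance between them was small and the log2 fold change of -0.09 ± 0.07 did not pass (edgeR adjusted p = 0.29). The female value was -0.01 ± 0.07 (edgeR adjusted p = 0.88). With the length and GC trend removed Mirg was called lower in both sexes, by -0.32 in males and -0.33 in females.

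Rian and Mirg were set against Meg3 as ratios. Both ratios share Meg3 as the denominator, so they are not separate results, and Mirg over Rian was not tested. The ratio of Rian to Meg3 FPKM was 7.14% ± 0.11 in stressed males against 9.17% ± 1.02 in non-stressed males, and 7.42% ± 0.39 in stressed females against 9.59% ± 1.32 in non-stressed females (SD, n = 4). All stressed libraries were below all non-stressed libraries in both sexes. The log2 difference was -0.36 in each sex, with p = 0.0286 by an exact 2-sided permutation test, the smallest value that 4 against 4 libraries allow, and an adjusted p of 0.0343 over 6 ratio tests. The ratio of Mirg to Meg3 was 1.35% ± 0.061 in stressed males against 1.93% ± 0.064 in non-stressed males, again with no overlap (log2 difference -0.51, exact permutation p = 0.0286, adjusted 0.0343). In females it was 1.35% ± 0.081 in stressed libraries against 1.96% ± 0.44 in non-stressed libraries, with a log2 difference of -0.52. Non-stressed female 3, at 1.42%, lay within the stressed range, and the female difference did not pass (exact permutation p = 0.0571). Rian, with 32.0 kb of exons and 35.8% GC, differs from Meg3, with 18.1 kb and 49.2% GC, in both length and GC. Mirg, at 7.29 kb, is shorter than Meg3. The ratios were not tested with the length and GC trend removed.

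**Figure D2:**
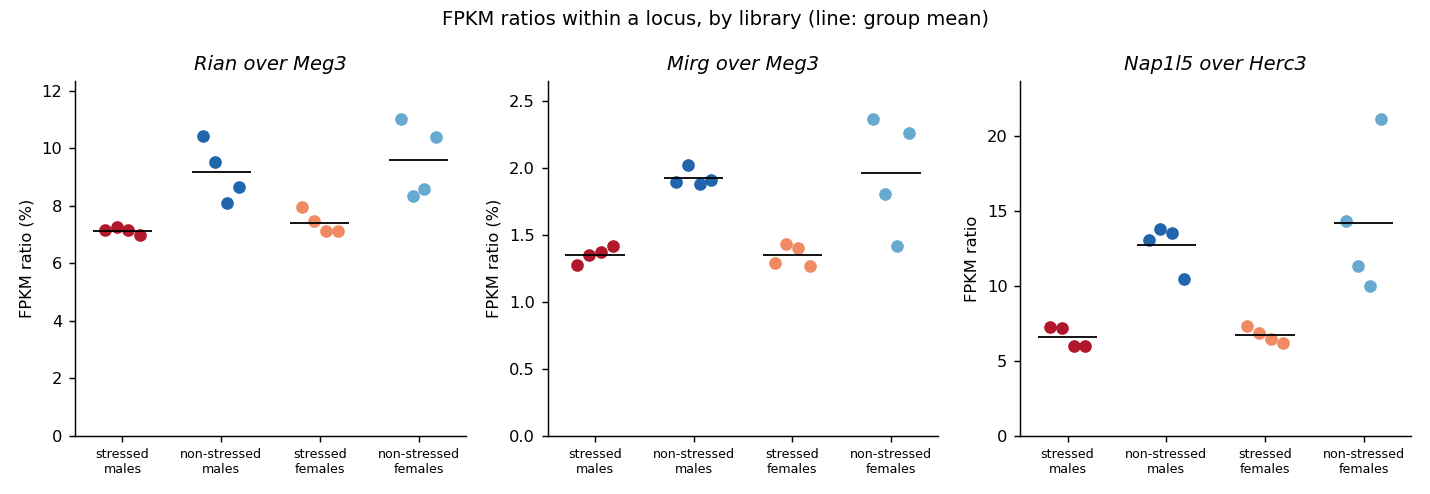
Ratios of FPKM within a locus (y axes from 0, in percent for Rian and Mirg over Meg3 and as a plain ratio for Nap1l5 over Herc3) in each library, with stressed left of non-stressed in each sex; lines are group means. Stressed libraries sit lower in every panel, with overlap only for Mirg over Meg3 in females.

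Rtl1, the paternally expressed, retrotransposon-derived gene between Meg3 and Rian, lies on the opposite strand, 3.48 kb from Rian. It had 12, 5, 5 and 3 counts in stressed males, against 214, 186, 240 and 200 counts in non-stressed males. In females it had 5, 7, 11 and 10 counts in stressed libraries, against 181, 236, 234 and 198 counts in non-stressed libraries. The log2 fold change was -5.44 ± 0.25 in males and -5.03 ± 0.24 in females, the largest decrease among the tested imprinted genes. In the GENCODE M21 annotation 8.12% of the exonic bases of Rtl1 lie over exons of the other strand, and transcripts of the maternal chromosome run opposite to it. How counting treated strand is not given in the sources used here, so reads from Rtl1 and from an opposite transcript cannot be told apart. Among all tested genes with more than 50% of their exonic bases over opposite-strand exons, 43.7% of 277 differed by more than 4-fold between stressed and non-stressed males, beside 4.40% of the 12198 genes with no such base. The same shares were 44.4% and 4.50% in females. Rtl1 and Meg3 belong to the 3003 genes with such bases up to 10%, of which 59 differed by that much in males and 58 in females, a smaller share than among genes with no such base. The share of such bases was 6.79% in Meg3, 0.782% in Zdbf2 and 0 in the other 6 members. The part of strand in the members' values was not tested.

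Of the other genes of the Dlk1-Dio3 domain, none passed in both sexes. Dlk1, a Notch ligand-like membrane protein, averaged 2.44 ± 0.51 FPKM in stressed males against 2.00 ± 0.090 in non-stressed males, and 2.50 ± 0.45 FPKM in stressed females against 1.83 ± 0.62 in non-stressed females (SD, n = 4), with edgeR adjusted p of 0.26 and 0.077. Dio3, the enzyme that inactivates thyroid hormone, passed in females, with a log2 fold change of -0.39 and an adjusted p of 0.049, and not in males, at -0.22. Begain, a postsynaptic density protein, had -0.19 in both sexes and did not pass (edgeR adjusted p = 0.077 in males and 0.056 in females). In the domain as a whole, with Meg3, Rian and Mirg included, 1 gene was called higher and 1 lower of 7 tested in males, and 1 higher and 2 lower in females. The share called over all tested genes was 39.7% in males and 49.3% in females. Without the length and GC trend, 0 were called higher and 4 lower in each sex (Rtl1, Rian, Mirg and Begain, the last at -0.23 in males and -0.30 in females), and the call on Dio3 in females ended.

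Peg3 had the largest increase of the 8 genes. It stood at 35.2, 31.7, 28.0 and 27.8 FPKM in stressed males, against 19.5, 17.0, 17.6 and 17.9 FPKM in non-stressed males. In females it stood at 30.1, 28.7, 30.3 and 28.8 FPKM in stressed libraries, against 17.2, 17.9, 21.5 and 19.3 FPKM in non-stressed libraries. The lowest stressed library of either sex was above the highest non-stressed library of both. Its log2 fold change was 0.78 ± 0.08 in males and 0.63 ± 0.08 in females, with edgeR adjusted p of 2.9e-06 and 2.49e-05. Peg3 kept its call in males with the length and GC trend removed, at 0.36 (adjusted p = 0.0043). In females the call ended, at 0.17 (adjusted p = 0.13).

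The 3 tested genes of the Peg3 domain were all called higher in both sexes, where 18.5% of all tested genes were in males and 22.1% in females. Usp29, a ubiquitin-specific protease gene expressed from the paternal chromosome, starts 146 bases from Peg3 in the other direction. It averaged 2.00 ± 0.31 FPKM in stressed males against 1.36 ± 0.063 in non-stressed males, and 2.05 ± 0.11 FPKM in stressed females against 1.31 ± 0.12 in non-stressed females (SD, n = 4). Its log2 fold change was 0.56 ± 0.09 in males and 0.65 ± 0.09 in females (edgeR adjusted p = 0.00021 and 5.8e-05). Zim1, a zinc finger gene of the same domain expressed from the maternal chromosome, had 0.49 ± 0.18 in males and 0.57 ± 0.18 in females (edgeR adjusted p = 0.040 and 0.016). With the length and GC trend removed, 1 of the 3 was called higher in males and 0 in females.

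Zdbf2 was the least abundant member per kilobase. It had 2.61, 2.10, 2.00 and 1.91 FPKM in stressed males, against 1.91, 1.60, 1.38 and 1.39 FPKM in non-stressed males. The values were 2.14, 2.12, 2.52 and 2.17 FPKM in stressed females, against 1.62, 1.82, 1.98 and 1.85 FPKM in non-stressed females. In males the lowest stressed library equalled the highest non-stressed library, and in females the ranges did not overlap. The log2 fold change was 0.47 ± 0.11 in males and 0.29 ± 0.11 in females (edgeR adjusted p = 0.0042 and 0.041). The female call was lost without non-stressed female 1 (adjusted p = 0.12) or 2 (0.063), without stressed female 1 (0.053), 3 (0.13) or 4 (0.061), and with the replicate number as a block (0.052). With the length and GC trend removed it was 0.12 in males and -0.06 in females, and neither passed. Adam23, an adhesion protein gene 131 kb downstream, had a log2 fold change of 0.33 ± 0.09 in males and 0.45 ± 0.09 in females, and with the trend removed was called lower in males, at -0.19.

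Ndn, which in neurons is linked to cell cycle exit and survival, had 57.5, 53.5, 54.1 and 50.6 FPKM in stressed males, against 72.1, 65.3, 65.3 and 61.5 FPKM in non-stressed males. In females it had 52.5, 55.5, 52.8 and 53.4 FPKM in stressed libraries, against 73.8, 61.9, 59.8 and 93.9 FPKM in non-stressed libraries. The ranges did not overlap in either sex, and non-stressed females 1 and 4 were the highest of all 16 libraries. This gave a log2 fold change of -0.28 ± 0.11 in males (edgeR adjusted p = 0.059) and -0.44 ± 0.11 in females (adjusted p = 0.0049). Without non-stressed females 1 and 4 the female value was -0.15 and did not pass (adjusted p = 0.073), while the male value was -0.25 and passed (adjusted p = 0.00052), as the male value also did without non-stressed female 2, 3 or 4 alone, with adjusted p between 0.0026 and 0.046. In the Prader-Willi region around Ndn, 3 genes were called higher and 1 lower of 7 tested in males, and 1 higher and 2 lower in females. The share called over all tested genes was 39.7% in males and 49.3% in females. Snrpn, a splicing protein gene of the same region, averaged 285 ± 4.73 FPKM in stressed males against 385 ± 17.4 in non-stressed males, and 290 ± 12.7 FPKM in stressed females against 448 ± 112 in non-stressed females (SD, n = 4). Its log2 fold change was -0.42 ± 0.13 in males and -0.64 ± 0.13 in females (edgeR adjusted p = 0.014 and 0.0007), and both calls ended with the trend removed. Ube3a, the ubiquitin ligase of Angelman syndrome that neurons express from the maternal chromosome, had 0.40 ± 0.10 in males (edgeR adjusted p = 0.0059) and 0.25 ± 0.10 in females (0.057). Ube3a turned sign with the trend removed, to -0.07 in males and -0.21 in females, and passed in neither sex. Atp10a, a phospholipid flippase gene at the edge of the region, had 0.52 ± 0.14 in males and 0.65 ± 0.14 in females and was called higher with the trend removed too, at 0.40 and 0.49. For the region as a whole 1 gene was then called higher and 1 lower in males, and 1 higher and 2 lower in females. Snhg14, another gene of the region, was called lower in both sexes in that fit, at -0.27 in males and -0.40 in females. With the trend left in it was called higher in males, at 0.24 ± 0.09, and did not pass in females, at 0.12 ± 0.09 (edgeR adjusted p = 0.036 and 0.28).

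Nap1l5 had 158, 152, 122 and 119 FPKM in stressed males, against 202, 186, 185 and 166 FPKM in non-stressed males. In females it had 150, 144, 130.1 and 129 FPKM in stressed libraries, against 209, 170, 177 and 286 FPKM in non-stressed libraries. The ranges did not overlap in either sex, and non-stressed female 4 was the highest library. The log2 fold change was -0.42 ± 0.14 in males and -0.61 ± 0.14 in females (edgeR adjusted p = 0.027 and 0.0023). The male call was lost without non-stressed male 1 (adjusted p = 0.070), 2 (0.055) or 3 (0.051) and without stressed male 3 (0.076) or 4 (0.085). With the length and GC trend removed the values were -0.02 in males and -0.13 in females, and neither passed. Herc3, a HECT ubiquitin ligase gene that encloses Nap1l5 on the other strand, moved the other way. It averaged 20.8 ± 0.78 FPKM in stressed males against 14.7 ± 1.21 in non-stressed males, and 20.6 ± 0.33 FPKM in stressed females against 15.2 ± 1.82 in non-stressed females (SD, n = 4). Herc3 was called higher in both sexes, at 0.51 ± 0.08 in males and 0.44 ± 0.08 in females (edgeR adjusted p = 8.8e-05 and 0.00032), and still with the trend removed, at 0.25 and 0.15. The ratio of Nap1l5 to Herc3 FPKM was 6.61 ± 0.73 in stressed males against 12.7 ± 1.52 in non-stressed males, and 6.70 ± 0.49 in stressed females against 14.2 ± 4.97 in non-stressed females. The log2 difference was -0.94 in males and -1.02 in females, with no overlap (exact permutation p = 0.0286, adjusted 0.0343, in each sex). Nap1l5 has fewer exonic bases than Herc3, and this ratio was not tested with the length and GC trend removed. With it removed, the log2 fold changes of the genes were closer together, at -0.02 for Nap1l5 beside 0.25 for Herc3 in males. In females they were -0.13 and 0.15.

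Impact had 49.3, 48.9, 41.9 and 41.7 FPKM in stressed males, against 58.4, 53.4, 47.2 and 45.2 FPKM in non-stressed males. Female libraries had 48.7, 44.0, 44.5 and 43.1 FPKM under stress, against 50.4, 46.3, 49.7 and 51.1 FPKM in non-stressed females. The ranges overlapped in both sexes. The effect was a log2 fold change of -0.16 ± 0.08 in males and -0.13 ± 0.08 in females, and neither passed (edgeR adjusted p = 0.15 and 0.19). With the trend removed the male value was unchanged in size, at -0.16, and passed (adjusted p = 0.045). Of 10 tested genes of the Gcn2 pathway, which lowers translation when amino acids run short, 1 was called higher and 3 lower in males, and 2 higher and 4 lower in females. The share called over all tested genes was 39.7% in males and 49.3% in females. Eif2ak4, which encodes the kinase Gcn2, was higher by 0.39 ± 0.10 in males and 0.57 ± 0.10 in females. Eif2s1, the subunit that Gcn2 phosphorylates, was lower by -0.42 ± 0.07 in males and -0.35 ± 0.07 in females. Ddit3, a transcription factor of the stress response, was lower by -0.68 ± 0.14 in males and -0.77 ± 0.14 in females, and Asns, asparagine synthetase, by -0.26 ± 0.10 and -0.37 ± 0.10. With the trend removed 1 of the 10, Eif2s1, was called lower in each sex, and 1 was called higher in males and 2 in females. The call on Eif2ak4 in males ended, at 0.16.

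The stress effect ran with gene length above 1 kb, and 4 of the 8 members lay within the middle 50% of their length class in each sex. The median log2 fold change of tested genes with exons up to 1 kb was -0.37 in males and -0.42 in females, and at 1 to 2 kb it was -0.38 and -0.49. From there it climbed, with -0.16 and -0.18 at 2 to 4 kb, 0.04 and 0.06 at 4 to 6 kb, 0.20 and 0.22 at 6 to 10 kb, 0.35 and 0.36 at 10 to 15 kb, and 0.53 and 0.54 above 15 kb. Nap1l5, the shortest member, was at -0.42 in males, beside the median of -0.38 for its length class. Meg3, in the longest class, was at 0.42 in males, within the middle 50% of that class, which ran between 0.29 and 0.74. Peg3, at 0.78 in males, was above the upper quartile of its class, 0.56, and at 0.63 in females above 0.59. Rian, at 0.06 in males and 0.14 in females, was below the lower quartile of its class, 0.29 and 0.31. Mirg, at -0.09 in males and -0.01 in females, was below the lower quartile of the 6 to 10 kb class in both sexes, in females by less than 1 SE. Impact in males, at -0.16 beside a lower quartile of -0.15, and Ndn in females, at -0.440 beside -0.436, were below their classes by less than 1 SE too.

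**Figure D3:**
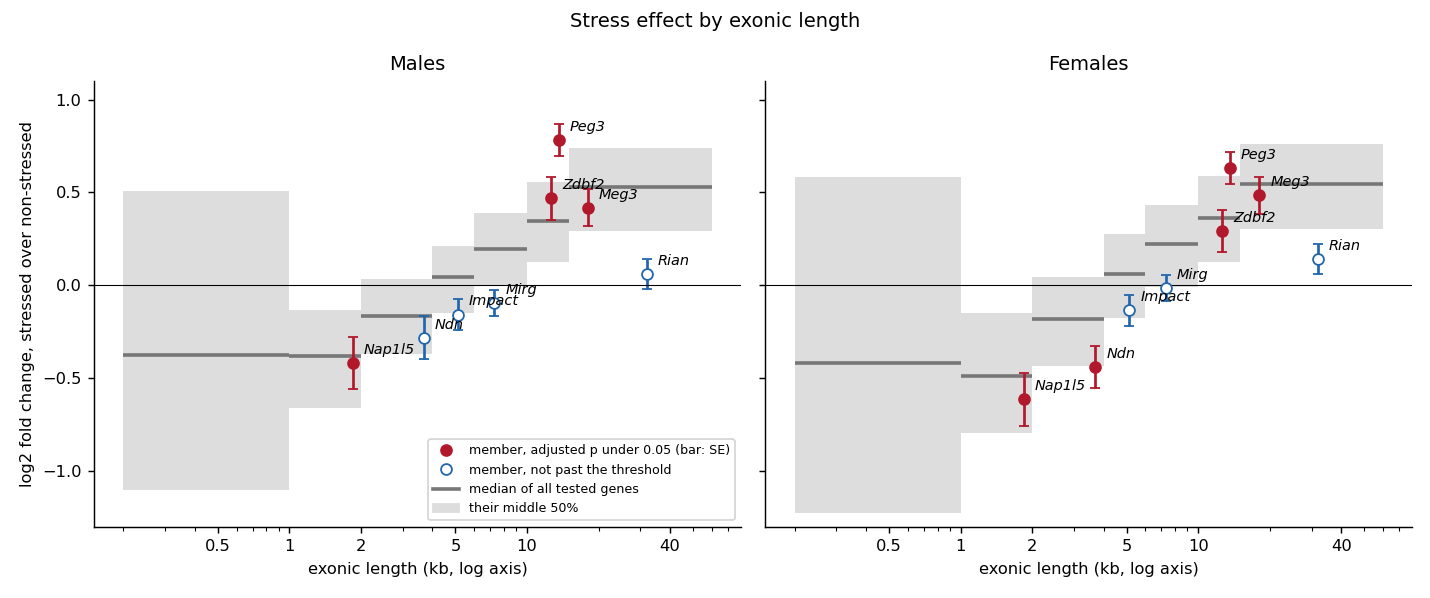
Log2 fold change, stressed over non-stressed (y axis), against exonic length in kb (x axis, log scale), in males (left) and females (right); grey bands are the middle 50% and grey lines the median of all tested genes in each length class, and points are the 8 genes with SE. Peg3 lies above and Rian below the band in both sexes.

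When a spline of length and GC content was removed from each library, 1 of the 8 genes was called higher in males (Peg3) and 3 lower (Rian, Mirg and Impact). In females 0 were called higher and 3 lower (Rian, Mirg and Ndn). Over all tested genes the number called was 5622 in males and 6937 in females, against 6976 and 8668 without the correction. Meg3, Nap1l5 and Zdbf2 thus passed in the fit with the trend left in and not in the other, and Rian and Mirg the reverse.

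**Figure D4:**
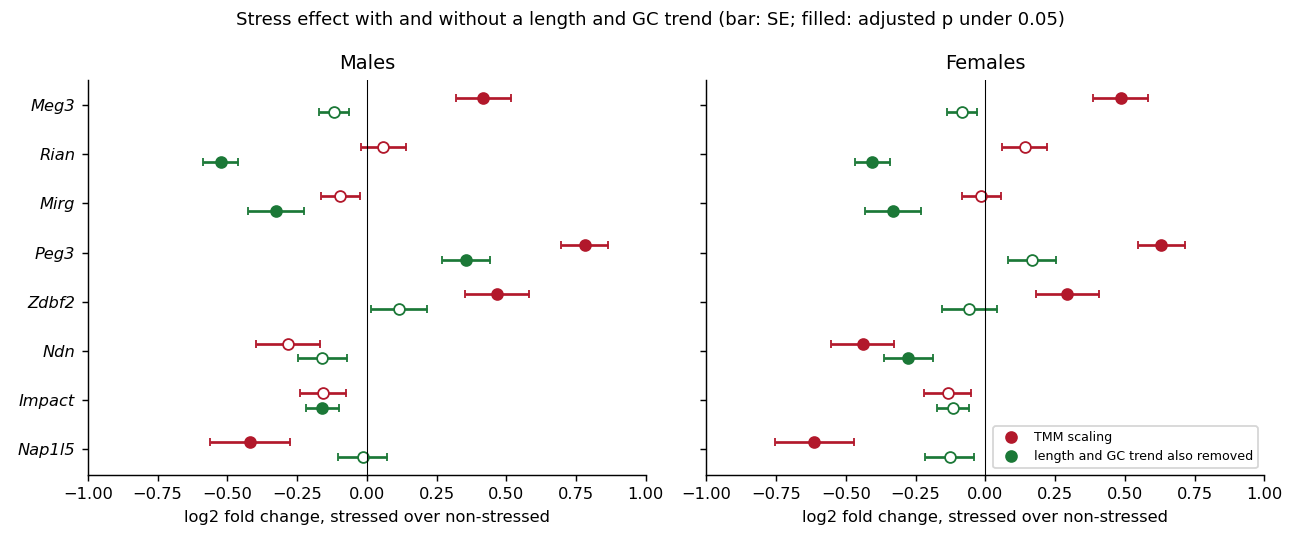
Log2 fold change, stressed over non-stressed (x axis), of each gene (rows) in males (left) and females (right), with TMM scaling (red) and with the length and GC trend also removed (green); bars are SE and filled points passed the threshold. Meg3 lies at 0.42 and 0.48 in red and at -0.12 and -0.08 in green.

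No member passed the test of a difference in stress effect between the sexes, where 0 of 17569 genes (0%) were called and 374 had an unadjusted p under 0.05 by edgeR. DESeq2 called 0 genes as well and limma on log2(FPKM + 0.1) called 1. The female minus male difference in log2 fold change ranged between -0.19 for Nap1l5, with an interval of -0.60 to 0.21, and 0.08 for Rian, with an interval of -0.15 to 0.31. The intervals are a fixed multiple of the SE on each side and cover only about 95%. For Meg3 it was 0.07, with an interval of -0.21 to 0.35, and for Peg3 -0.15, with an interval of -0.39 to 0.09. For Peg3 and Meg3 the intervals ended short of the stress effects themselves, 0.78 and 0.63 for Peg3 and 0.42 and 0.48 for Meg3 in males and females. The intervals of the other members reached beyond the smaller of their 2 stress effects, so for these genes sex differences of that size were not detectable.

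Between females and males of the same condition, 0 of the 8 genes were called. Of all tested genes 7 (0.0398%) were called in stressed mice and 8 (0.0455%) in non-stressed mice. In stressed mice the female over male log2 fold changes lay between -0.06 for Peg3 and 0.06 for Rian. In non-stressed mice they lay between -0.08 for Mirg and 0.23 for Zdbf2, whose interval was -0.01 to 0.46 and whose unadjusted p was 0.069. By these log2 fold changes stressed females and stressed males differed least in Mirg (-0.002), Meg3 (0.003) and Nap1l5 (0.003). Mirg stood at 3.83 ± 0.22 FPKM in females and 3.82 ± 0.079 FPKM in males, and Meg3 at 284 ± 3.59 FPKM in females and 282 ± 9.92 FPKM in males. Nap1l5 stood at 138.3 ± 10.7 FPKM in females and 137.6 ± 19.9 FPKM in males (SD, n = 4).

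By mean level per kilobase Meg3, Nap1l5, Ndn and Impact came in that order from the top in 3 of the 4 groups. In non-stressed females Nap1l5, at 210.5 ± 53.0 FPKM, and Meg3, at 203 ± 39.0 FPKM, did not differ beyond their spread (SD, n = 4). Mirg was followed by Zdbf2 at the low end in all 4 groups, and in stressed mice of both sexes Peg3 stood above Rian. In non-stressed libraries of both sexes Rian, at 19.5 ± 1.76 FPKM in males and 19.1 ± 1.83 FPKM in females, and Peg3, at 17.97 ± 1.07 FPKM in males and 18.97 ± 1.89 FPKM in females, did not differ beyond their spread. Counts per library ran between 50992 and 165304 for Meg3 and between 307 and 913 for Zdbf2, so counting error was larger for Zdbf2.

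After the group means were removed, the members also varied together within groups, given here as a description over 16 libraries that share depth and library make-up. The correlation of log2 CPM was 0.88 for Ndn and Nap1l5, 0.75 for Peg3 and Zdbf2, -0.82 for Meg3 and Ndn and -0.75 for Mirg and Peg3. Non-stressed female 4 had the highest Ndn and Nap1l5 FPKM and the lowest Meg3 FPKM of all 16 libraries. Its weight in the correlations was not tested. The transcripts of 1 domain were less alike, at 0.40 for Meg3 and Rian and -0.42 for Meg3 and Mirg. Over all tested genes with a mean FPKM of at least 1, those most like Meg3 were Ankrd17 (0.98), Trim44 (0.97) and Ralgapb (0.97). Among those most like Peg3 were Prkdc (0.91) and Csrnp3 (0.90), with 13.2 and 12.3 kb of exons beside the 13.6 kb of Peg3. Those most like Ndn were Rpl30, Srp14 and Polb, all at 0.99, with 3.02, 1.2 and 3.94 kb beside the 3.69 kb of Ndn.

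Wider lists of imprinted genes include members, Peg3 and Meg3 among them. Here 5 of 23 tested paternally expressed genes were called higher and 7 lower in males, and 6 higher and 7 lower in females. Their median log2 fold changes were -0.08 and -0.03. In the fit without the length and GC trend, 2 of the 23 were called higher and 5 lower in males, and 1 higher and 6 lower in females. Of 14 tested maternally expressed genes 7 were called higher and 0 lower in each sex, with medians of 0.39 in males and 0.21 in females. Beside both lists, 18.5% of all tested genes were called higher and 21.2% lower in males. In females these shares were 22.1% and 27.3%. With the trend removed, 3 of the 14 were higher and 3 lower in males, and 4 higher and 3 lower in females. Over all 17569 tested genes 2824 were then called higher and 2798 lower in males, and 3102 higher and 3835 lower in females. Ppp1r9a (neurabin, an actin-binding scaffold of dendritic spines) averaged 19.3 ± 0.67 FPKM in stressed males against 10.2 ± 0.69 in non-stressed males, and 18.9 ± 0.52 FPKM in stressed females against 10.8 ± 1.84 in non-stressed females (SD, n = 4). Its log2 fold change was 0.93 ± 0.09 in males and 0.80 ± 0.09 in females, and 0.50 and 0.36 with the trend removed, called in each case. Kcnk9, a leak potassium channel, had 0.66 ± 0.13 in males and 0.70 ± 0.13 in females, and Igf2r, the receptor that clears Igf2, had 0.74 ± 0.16 and 0.78 ± 0.16. Both were called higher in both sexes, also with the trend removed. On the paternal side Nnat (neuronatin), at 163 ± 15.1 FPKM in stressed males against 231 ± 15.9 in non-stressed males and 160 ± 8.58 FPKM in stressed females against 264 ± 40.1 in non-stressed females (SD, n = 4), was lower by -0.50 ± 0.10 and -0.73 ± 0.10. Its call ended in males with the trend removed.

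**Figure D5:**
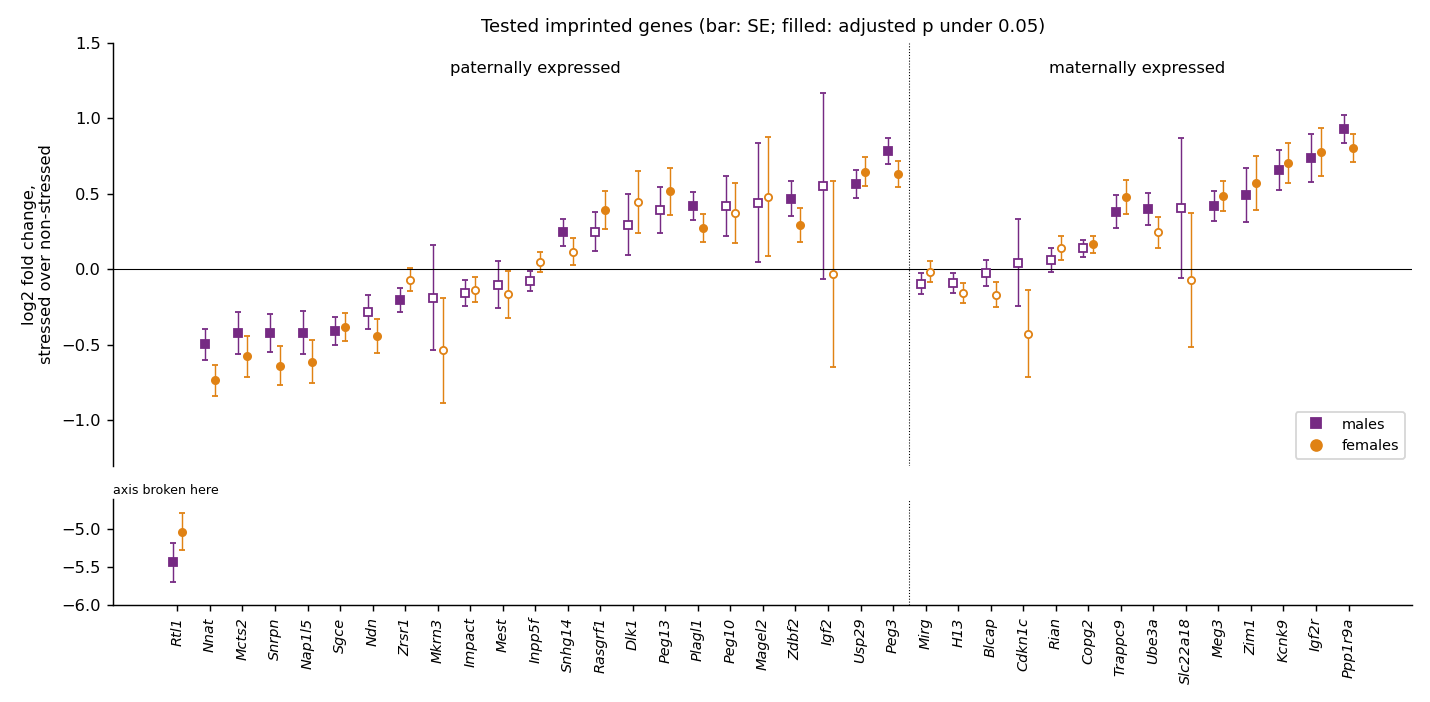
Log2 fold change, stressed over non-stressed (y axis, broken), of the tested paternally and maternally expressed genes (x axis) in males (squares) and females (circles); bars are SE and filled symbols passed the threshold. Paternally expressed genes lie on both sides of 0, no maternally expressed gene was called lower, and Rtl1 stands alone near -5.

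Of 8 tested genes that keep imprints, 4 were called higher and 0 lower in each sex. Beside this and the other lists of this paragraph, 18.5% of all tested genes were called higher and 21.2% lower in males. In females these shares were 22.1% and 27.3%. Zfp445, a zinc finger protein that binds imprinting control regions, averaged 35.4 ± 1.61 FPKM in stressed males against 24.0 ± 2.35 in non-stressed males, and 36.0 ± 1.24 FPKM in stressed females against 24.4 ± 3.37 in non-stressed females (SD, n = 4). Its log2 fold change was 0.57 ± 0.09 in males and 0.56 ± 0.09 in females, and 0.40 and 0.39 with the trend removed. Dnmt3a, which sets new DNA methylation, had 0.67 ± 0.11 and 0.65 ± 0.11, Dnmt1, which copies it, had 0.54 ± 0.18 and 0.58 ± 0.18, and Setdb1, a histone H3 lysine methyltransferase, had 0.36 ± 0.10 and 0.41 ± 0.10. With the trend removed 3 of the 8 were higher and 1 lower in each sex, and the calls on Dnmt3a in females (0.09) and Setdb1 in males (0.17) ended. Of 7 tested genes of Polycomb repressive complex PRC2, a complex that Meg3 has been reported to bind, 2 were called higher and 1 lower in males, and 1 higher and 2 lower in females. Ezh1, one of its methyltransferases, had 0.29 ± 0.08 and 0.27 ± 0.08, and Eed, its histone-binding subunit, had -0.38 ± 0.12 and -0.53 ± 0.12. Both calls on Ezh1 ended with the trend removed, at 0.05 in males and -0.03 in females, and Eed was still called lower in both sexes. Of the 7 genes 1 was then called higher and 1 lower in males, and 1 higher and 2 lower in females. Of the 4 tested neighbours outside these domains, 2 were called higher and 1 lower in each sex. Once the trend was removed, it was 1 higher and 3 lower in males, and 1 higher and 2 lower in females. Cabyr, a calcium-binding protein gene first described in sperm that lies 201 kb from Impact, averaged 0.48 ± 0.16 FPKM in stressed males against 3.85 ± 0.70 in non-stressed males, and 0.50 ± 0.077 FPKM in stressed females against 3.47 ± 0.40 in non-stressed females (SD, n = 4), with log2 fold changes of -2.96 ± 0.21 and -2.80 ± 0.21.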

How the data were processed

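Total RNA, 1 µg per library, was made into libraries with the VAHTS Universal V8 RNA-seq kit, per the labels' protocols. HISAT2 2.0.1, HTSeq 0.6.1 and build GRCm39 are named in the submitters' processing notes, and the annotation release and strand setting are not given in the sources used here. The deposited table holds the authors' whole-number count per gene and library, and the authors' FPKM, which counts and the exonic length in bases from the same table gave back within 0.005. All 16 libraries had different counts, and nothing says whether pools were raised or sequenced apart, so p-values measure the spread between libraries, which may be technical.

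Genes with an FPKM of at least 0.5 in at least 4 libraries, 17569 in all, were tested with edgeR 4.0.16 (TMM, quasi-likelihood, 4 group means, all 16 libraries) in R 4.3.3. Alternatives used DESeq2 1.42.0, limma 3.58.1 on log2 FPKM or TPM with a pseudocount of 0.1 or 1, other scalings and filters, a replicate block, a spline of length and GC (4 degrees of freedom), and each library left out. Ratios were tested with exact 2-sided permutation tests (scipy 1.17.1). GC content (98.8% of tested genes) and opposite-strand exons came from GENCODE M21, and sequences from RefSeq, both on GRCm38, matched by gene ID or name. The script was tested on simulated data. The members and lists were chosen with earlier results of these data known. Genes were chosen by rule: all members, genes of their domains and neighbours, and up to 4 genes of each other list. The latter had the smallest p among those past the threshold in both sexes. The hippocampal list was added after the values were seen. Some of the domain and neighbour genes and most of the cell type genes so chosen are not named above. Kdr, Flt1 and Gfap were named outside the rule, as they did not pass in females. For Meg3, Peg3 and Ndn the 3 genes with the highest correlation were also to be named, and a gene among them is not reported here.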

Additional observations from a re-analysis of the deposited data

Results flagged for a closer look

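Zdbf2 in stressed female 3 stood at 2.52 FPKM, while the other stressed females lay between 2.12 and 2.17 FPKM. Its distance to the nearest of these was 0.875 of the group's whole range, above Dixon's 95% critical value for 4 libraries. In all, 44 groups of 4 libraries were examined this way and 1 was marked, and chance marks about 1 in 20. Without this library the female log2 fold change of Zdbf2 was 0.23 with an adjusted p of 0.13 by edgeR.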

How the results depend on the processing

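With the replicate number as a block, 6929 genes were called in males and 8592 in females. The block ended 1 call on a member, Zdbf2 in females (adjusted p = 0.052), and changed no other. The numbers do not pair the libraries: correlations between same-numbered libraries ran between -0.02 and 0.13 for the male contrast and between -0.08 and 0.008 for the female one.

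The count of members called in females was 3 with the length and GC trend removed and 3 without non-stressed females 1 and 4, where 5594 genes were called. The sex by stress test called 1 gene by limma on log2(FPKM + 0.1). The sex effect called 11 genes in stressed mice by DESeq2 and 11 with only those groups, and in non-stressed mice 15 by DESeq2 and 16 without females 1 and 4. Leaving out each library, 5847 to 8583 genes were called in males and 7135 to 9829 in females, with 3 to 5 and 4 to 6 members, 7 to 9 genes for sex in stressed and 8 to 11 in non-stressed mice, and 0 for the interaction. Every ratio kept its direction, with log2 differences of -0.41 to -0.29 and -0.42 to -0.29 for Rian over Meg3, -0.53 to -0.48 and -0.66 to -0.42 for Mirg over Meg3, and -1.03 to -0.89 and -1.17 to -0.81 for Nap1l5 over Herc3, in males and females.

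Signs turned, in log2 fold change, with the trend removed for Meg3 (-0.12 in males, -0.083 in females), Rian (-0.52 and -0.41) and Zdbf2 in females (-0.057), and for Mirg in the interaction (-0.0071). On TPM they turned for Mirg (0.14 in males, 0.24 in females) and Impact (0.076 and 0.12), less than or close to the shift of 0.20 and 0.23 in the median of all genes, where 75.2% and 73.8% of calls were higher, against 46.7% and 44.8% with TMM. Mirg in females, close to 0, also turned by DESeq2 (0.010), median-ratio scaling (0.0065), no filter (0.031), a stricter filter (0.0050) and without females 1 and 4 (0.057), and ran between -0.043 and 0.025 with 1 library left out. Without females 1 and 4 the interaction was -0.14 for Meg3, 0.10 for Ndn and 0.089 for Nap1l5. With 1 library left out it ran between -0.014 and 0.19 for Meg3, -0.23 and 0.0086 for Ndn, -0.29 and 0.0064 for Nap1l5 and -0.043 and 0.073 for Impact. The causes were not tested. Depth limits Zdbf2 and Mirg most, each under 1000 counts in every library.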
